A study of Saccharomyces cerevisiae with 9 samples.

Results

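The genes described here are the ribosome biogenesis factors of baker's yeast, Saccharomyces cerevisiae, that are named NOP, UTP or RRP with a number, NSA1 to NSA3, NOC1 to NOC4, IMP3, IMP4 or MPP10. The rule reads the gene names in the platform's annotation of each probe set and uses no measured value. The rule found 60 genes, read by 77 probe sets, among the 5656 genes that have a probe set of their own. All 60 matched a RefSeq gene of assembly R64. NSA3 and NOC1 are listed there as CIC1 and MAK21, so the rule does not take them as members.

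Every culture was a cth1cth2 strain, which lacks both CTH1 and CTH2, carrying the plasmid pRS416. The plasmid was empty (the vector group, titled cth1cth2), carried CTH1 (titled CTH1cth2) or carried CTH2 (titled cth1CTH2), with 3 arrays in each group and 9 in all. All grew in SC-Ura, which selects for the plasmid, with 100 µM of the iron chelator bathophenanthroline disulfonate (BPS) for about 6 h at 30 °C to exponential phase, and no iron-replete culture is analysed here. The strain background and the promoter in front of the plasmid genes are not given in the sources used here, nor is it stated whether the replicates were separate transformants. Each p-value thus reflects only how far these samples spread, and part of that may be technical.

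Ribosome biogenesis starts in the nucleolus, where RNA polymerase I makes a long precursor that holds most of the ribosomal RNAs. Small nucleolar ribonucleoproteins modify and guide the precursor, the small-subunit processome folds and cuts the part that becomes 18S rRNA, and other assembly factors build the large subunit around 25S rRNA. The RNA exosome trims or destroys RNA at several of these steps. In yeast the genes of these factors are known to be transcribed in concert, high in fast-growing cells and low under stress or starvation. Cth1 and Cth2 bind AU-rich elements in mRNAs and hasten their decay when iron is scarce.

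The measurement is the signal, the authors' probe-set intensity from Affymetrix Yeast Genome S98 arrays. Each array had been scaled to a common mean, so a level is relative to the other mRNAs on its array, and fewer cells or less RNA per cell cannot be told apart. Brightness also depends on the probes, so levels are compared between arrays and not between genes. Median signals ran from 153 to 184 over the 9 arrays, and pairwise Pearson correlations over the 4537 genes bright enough to test ran from 0.901 to 0.983. The plasmids matched the labels on every array. CTH1 had signals of 231, 592 and 288 in the CTH1 arrays and at most 14.3 elsewhere, and CTH2 had 3801, 3389 and 4498 in the CTH2 arrays and at most 10.2 elsewhere. CTH1 replicate 2 had the widest trend along the probe-set numbering, described after the results by role.

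Of the 60 ribosome biogenesis genes, 57 passed the filter on dim genes and were tested. The other 3 were UTP4 of the UTP-A complex, the processome protein UTP11 and the large-subunit factor NOC2. UTP4 had signals of 90.3, 104 and 43.1 in the vector arrays, 90, 94.7 and 71.5 in the CTH1 arrays and 61.4, 85.4 and 87.6 in the CTH2 arrays. UTP11 ran from 64.9 to 123 and NOC2 from 62.6 to 114 over the 9 arrays. Fitted without the filter, these 3 genes had differences between -0.19 and 0.30 on the log2 scale in the 3 comparisons. None of the 57 tested genes had a value at the floor of 43.2 that was set before taking log2.

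**Figure D1:**
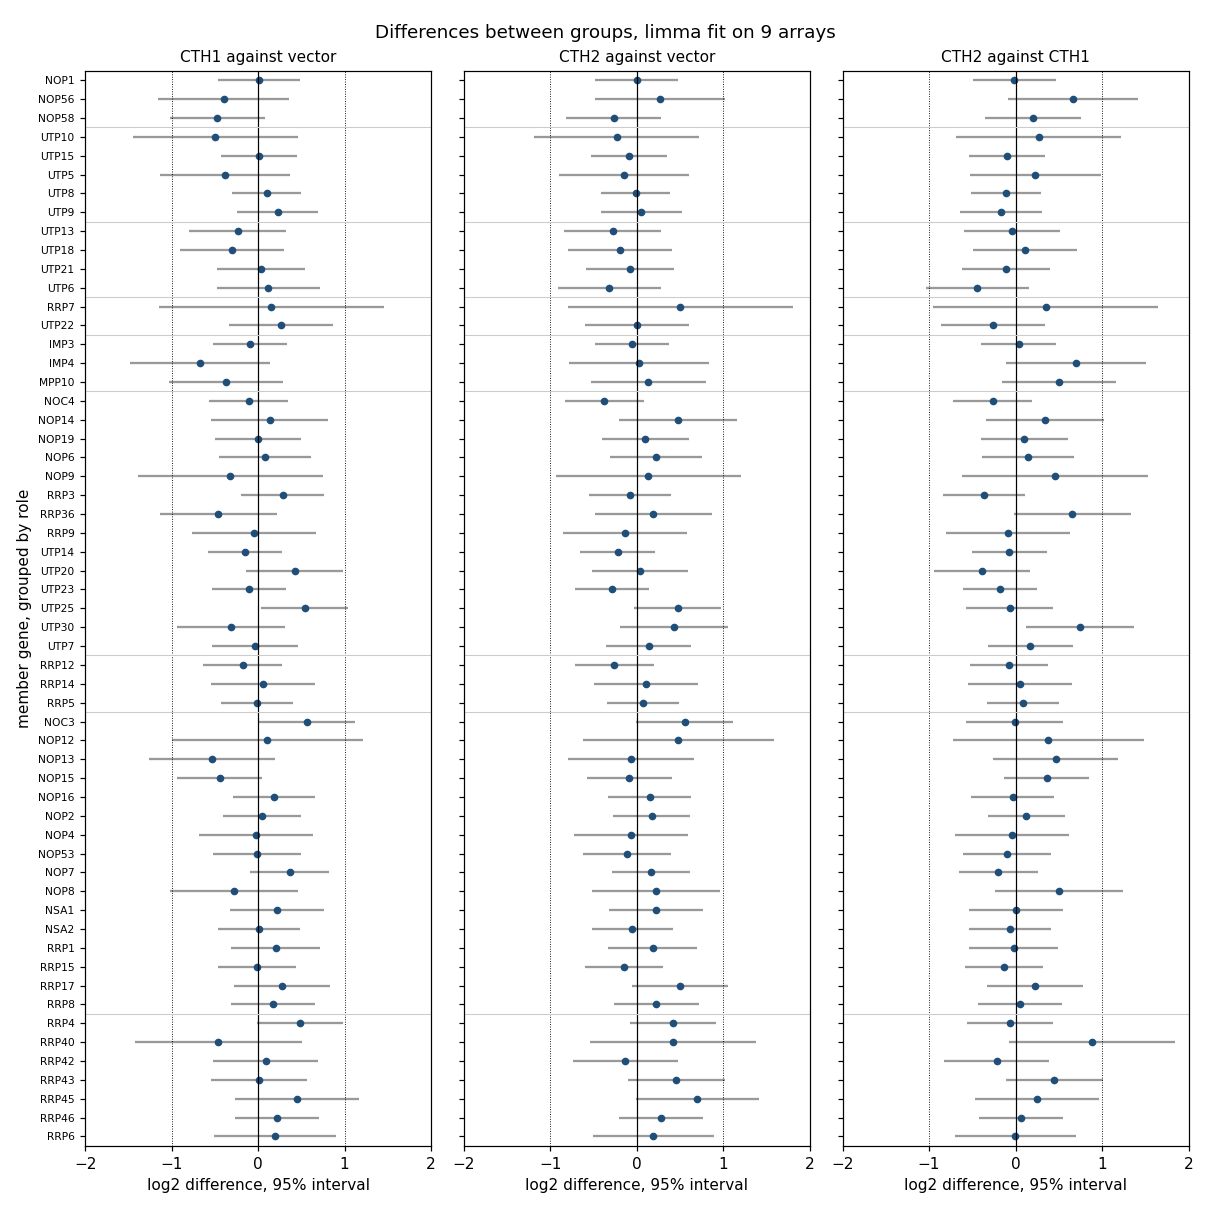
Log2 difference between group means for each of the 57 tested genes, with its 95% interval from the limma fit, in the 3 comparisons; dotted lines mark a difference of 1, and genes are grouped by role in the order of the text. Points lie between -0.67 and 0.88, and the intervals of 41, 45 and 42 genes stay between the dotted lines from left to right.

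The mRNA levels of these genes did not pass the test in any comparison. In CTH1 against vector, limma with Benjamini-Hochberg adjustment over 4537 genes called 0 of the 57 members at an adjusted p under 0.05, where 0% of all genes were called. Before adjustment, 2 members (3.51%) had a p under 0.05, against 6.9% of all genes. In CTH2 against vector it called 0 of 57, where 0.287% of all genes were called, and 0 members had an unadjusted p under 0.05, against 9.35% of all genes. In CTH2 against CTH1 it called 0 of 57, where 0.022% of all genes were called, and 1 member (1.75%) had an unadjusted p under 0.05, against 7.47%. The smallest adjusted p of a member was 0.71, 0.55 and 0.57 in these comparisons.

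The sizes of the differences were small and went both ways. The median difference of the 57 genes was 0.01 on the log2 scale for CTH1 against vector, beside 0.06 over all genes tested, with 30 members above 0 and 27 below. For CTH2 against vector it was 0.07, beside 0.07 over all genes, with 33 above and 24 below. It was 0.03 for CTH2 against CTH1, beside 0.01, with 30 above and 27 below. The comparisons with vector share the 3 vector arrays, and CTH2 against CTH1 shares its arrays with both, so these values are not independent of each other.

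A test that misses the threshold does not show equal levels, so the intervals matter. The 95% interval of the difference lay within 1 of 0, that is within a 2-fold change either way, for 41 members (71.9%) in CTH1 against vector, where this held for 77.4% of all genes. It did for 45 members (78.9%) in CTH2 against vector (75.7% of all genes) and 42 (73.7%) in CTH2 against CTH1 (78.3% of all genes). For the others a 2-fold difference was within the interval. An interval within 0.5 of 0 was reached by 7, 4 and 3 of the 57 members, and by 288, 250 and 287 of all 4537 genes. Signals were fully apart, with no overlap between the 2 groups, for 3 members in CTH1 against vector, where 10.2% of all genes were apart, for 4 in CTH2 against vector (16.5% of all genes) and for 4 in CTH2 against CTH1 (13.4% of all genes). As shares of the members these are 5.26%, 7.02% and 7.02%, all below the share over all genes. In the results by role, differences are also given without 1 array, the one whose loss moved them furthest toward 0 or past it. Leaving out other arrays enlarged them, and for some genes such a value is added.

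**Figure D2:**
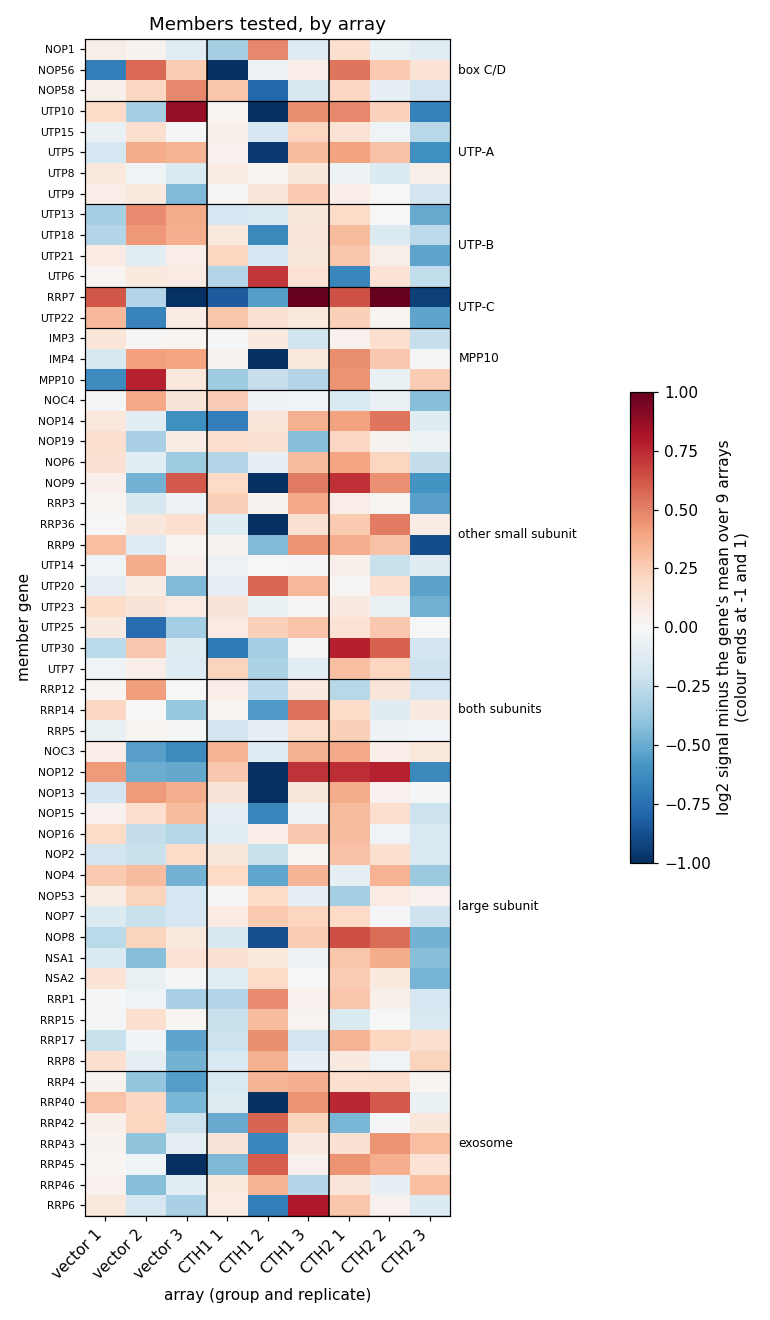
Log2 signal of each of the 57 tested genes on each of the 9 arrays, minus that gene's mean over the arrays, grouped by role; red is above the mean and blue below, with colours ending at -1 and 1. Columns of 1 group differ visibly among themselves: CTH2 replicate 1 is mostly red with 49 of 57 genes above their mean, CTH2 replicate 3 mostly blue with 14 of 57, and CTH1 replicate 2 holds deep blues as well as reds. Of all 4537 genes tested, 2445 lay above their mean on CTH2 replicate 1 and 2435 on CTH2 replicate 3.

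The box C/D small nucleolar ribonucleoproteins carry guide RNAs that place methyl groups on rRNA. Their methyltransferase is Nop1, the yeast fibrillarin, and Nop56 and Nop58 are paired core proteins. NOP1 had signals of 2371, 2339.5 and 2124 in the vector arrays, 1814, 3184 and 2085 in the CTH1 arrays and 2547, 2172 and 2121 in the CTH2 arrays. All 3 groups overlapped, and the mean log2 signals of 11.15 ± 0.09, 11.16 ± 0.42 and 11.15 ± 0.14 (SD, n = 3) lay closer together than the replicates of any group.

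NOP58, the brightest probe set among all members, had signals of 6190.2, 6905 and 8362 in the vector arrays, 7253, 3466 and 5348 in the CTH1 arrays and 6899, 5664 and 5226 in the CTH2 arrays. CTH1 replicate 2 was the lowest of the 9 arrays. The difference was -0.47 (SE 0.26, limma adjusted p = 0.77) for CTH1 against vector and -0.19 when CTH1 replicate 2 was left out. NOP56 had signals of 385, 918 and 739 in the vector arrays, 295, 597 and 649 in the CTH1 arrays and 899, 742 and 681 in the CTH2 arrays. Its 3 CTH2 arrays lay above its 3 CTH1 arrays, by 0.66 (SE 0.35, limma adjusted p = 0.72) on the log2 scale and 0.30 without CTH1 replicate 1, its lowest array, while the vector arrays reached from near the lowest to the highest value.

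The UTP-A complex binds the start of the precursor and is also tied to rRNA transcription. UTP10, the brightest of its probe sets here, had signals of 719, 497 and 1144 in the vector arrays, 635, 263 and 867 in the CTH1 arrays and 876, 735 and 391 in the CTH2 arrays. The spread within groups was wider than any gap between group means: CTH1 replicate 2 and CTH2 replicate 3 were the lowest arrays and vector replicate 3 the highest. UTP8 was among the steadiest genes, from 375 to 447 over all 9 arrays. UTP5 had signals of 537, 786 and 767 in the vector arrays, 625, 313 and 753 in the CTH1 arrays and 802, 743 and 398 in the CTH2 arrays. CTH1 replicate 2 and CTH2 replicate 3 were again low, and the difference of -0.38 for CTH1 against vector was -0.00 without CTH1 replicate 2. UTP5 and UTP8 were named after their values were seen.

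UTP-B joins next and contacts the U3 small nucleolar RNA. The 4 genes that the name rule takes had values below 0 in CTH2 against vector, from -0.32 to -0.08, and none passed the test. The value nearest 0, that of UTP21, was 0.15 without CTH2 replicate 3. The complex has 2 more genes under other names. PWP2 stood at -0.48 (SE 0.27, limma adjusted p = 0.61) and DIP2 at 0.85 (SE 0.45, limma adjusted p = 0.6), so the values of the whole complex went both ways. DIP2 had signals of 74.4, 356 and 183 in the vector arrays, 126, 149 and 239 in the CTH1 arrays and 347, 278 and 294 in the CTH2 arrays, and its vector arrays spanned the CTH2 arrays. PWP2 and DIP2 were named after their values were seen. UTP13, the brightest of these probe sets, had signals of 505, 886 and 825 in the vector arrays, 568, 577 and 688 in the CTH1 arrays and 725, 636 and 448 in the CTH2 arrays. Vector replicates 2 and 3 were the highest of the 9 arrays, while vector replicate 1 was the second lowest. UTP6 had signals of 376, 397 and 390.4 in the vector arrays, 303, 603 and 409 in the CTH1 arrays and 235, 407 and 312 in the CTH2 arrays. Its vector arrays lay close together, but CTH2 replicate 1 was the lowest array and CTH1 replicate 2 the highest. The differences were -0.32 (SE 0.27, limma adjusted p = 0.77) for CTH2 against vector and -0.44 (SE 0.27, limma adjusted p = 0.8) for CTH2 against CTH1. The first was -0.12 without CTH2 replicate 1, and the second -0.18 without CTH1 replicate 2.

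UTP-C is represented by UTP22 and RRP7. RRP7 varied more within groups than any other member, with signals of 297, 158 and 97.5 in the vector arrays, 108, 132 and 442 in the CTH1 arrays and 299.95, 429 and 101 in the CTH2 arrays. High and low arrays occurred in each group, and the SDs of its log2 signal were 0.81, 1.10 and 1.08 in the vector, CTH1 and CTH2 groups (n = 3). RRP7 was named for this spread after its values were seen. UTP22 had signals of 729, 367 and 615 in the vector arrays, 705, 647 and 624 in the CTH1 arrays and 688, 595 and 404 in the CTH2 arrays, with vector replicate 2 and CTH2 replicate 3 the lowest, and a difference of 0.26 for CTH1 against vector, which was -0.03 without vector replicate 2 and took the other sign with other probe sets of the gene (given with the probe sets).

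Mpp10, Imp3 and Imp4 form a complex that helps U3 pair with the precursor. IMP4 had signals of 361, 536 and 529 in the vector arrays, 413, 141 and 434 in the CTH1 arrays and 557, 485 and 399.7 in the CTH2 arrays. A single array, CTH1 replicate 2, lay far below the other 8. The difference was -0.67 (SE 0.37, limma adjusted p = 0.77) for CTH1 against vector and -0.14 without that array, and 0.70 (SE 0.37, limma adjusted p = 0.72) for CTH2 against CTH1, which became 0.17. Without CTH1 replicate 3 they were -0.95 and 0.98. MPP10 had signals of 194, 514 and 325 in the vector arrays, 236, 257 and 246 in the CTH1 arrays and 413, 286 and 359.9 in the CTH2 arrays. The CTH2 arrays lay above the CTH1 arrays (0.50, interval -0.16 to 1.17), and the vector arrays spanned both. IMP3 stayed between 310.4 and 411 on all arrays. MPP10 and IMP3 were named to complete the complex, after their values were seen.

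Among the other small-subunit factors, UTP25 and UTP30 had the lowest unadjusted p on the higher side. UTP25, a processome protein, had signals of 488, 269.8 and 361 in the vector arrays, 483, 540.05 and 556 in the CTH1 arrays and 505, 551 and 455 in the CTH2 arrays. All arrays with a plasmid gene were above vector replicates 2 and 3, while vector replicate 1 lay among them. The difference was 0.54 (SE 0.23, limma adjusted p = 0.71) for CTH1 against vector and 0.47 (SE 0.23, limma adjusted p = 0.56) for CTH2 against vector. Without vector replicate 2 they were 0.33 and 0.26, and without vector replicate 1 they were 0.75 and 0.69. UTP30 had signals of 196, 285 and 217 in the vector arrays, 145, 187 and 233 in the CTH1 arrays and 404, 356 and 207 in the CTH2 arrays. Here CTH2 replicates 1 and 2 were the highest of the 9 arrays, and CTH2 replicate 3 was below CTH1 replicate 3. The difference of 0.75 (SE 0.29, limma adjusted p = 0.57) for CTH2 against CTH1 had the smallest unadjusted p of any member in that comparison, 0.023, and ran from 0.55 to 1.08 over the 22 alternative settings.

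On the lower side stood NOC4, which works with Nop14 on the small subunit. It had signals of 298, 394 and 331 in the vector arrays, 360.3, 290.5 and 296 in the CTH1 arrays and 273, 289.9 and 225 in the CTH2 arrays. All 3 CTH2 arrays were below the arrays of both other groups, by narrow margins. The differences were -0.37 (SE 0.21, limma adjusted p = 0.61) for CTH2 against vector and -0.27 (SE 0.21, limma adjusted p = 0.9) for CTH2 against CTH1, the second -0.16 without CTH2 replicate 3. UTP23 and UTP14, a processome protein and the activator of the helicase Dhr1, had differences of -0.29 and -0.22 in CTH2 against vector, and both overlapped. They were -0.12 without CTH2 replicate 3 and -0.10 without vector replicate 2. RRP3, a DEAD-box helicase, had signals of 401, 353 and 378 in the vector arrays, 465, 403 and 513 in the CTH1 arrays and 414, 403 and 271 in the CTH2 arrays. The CTH1 arrays lay above the vector arrays (0.28, interval -0.20 to 0.76), and CTH2 replicate 3 was the lowest of all, giving -0.36 (SE 0.22, limma adjusted p = 0.79) in CTH2 against CTH1 and -0.17 without that array.

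RRP36 had signals of 114, 124 and 129 in the vector arrays, 105, 51.7 and 127 in the CTH1 arrays and 137, 163 and 120.5 in the CTH2 arrays. CTH1 replicate 2 was again the lowest, with a wide gap to the others. Its difference of 0.66 (SE 0.31, limma adjusted p = 0.69) in CTH2 against CTH1 was 0.27 without that array, and in CTH1 against vector it moved from -0.46 to -0.08. The brightest probe set of these factors, UTP23, ran from 716 in CTH2 replicate 3 to 1137 in vector replicate 1.

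Factors that act on both subunits were RRP5, RRP12 and RRP14. RRP5, a large RNA-binding protein needed for the early cuts of both, was steady, from 507 to 677. RRP12, which helps both subunits leave the nucleus, had signals of 766, 1009.7 and 755 in the vector arrays, 791, 631 and 803 in the CTH1 arrays and 622, 821 and 668 in the CTH2 arrays, and its difference was -0.26 (SE 0.21, limma adjusted p = 0.76) for CTH2 against vector and -0.12 without vector replicate 2. The groups overlapped. RRP5 was named after its values were seen.

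Of the 16 large-subunit factors tested, 10 had values above 0 in CTH1 against vector and 10 in CTH2 against vector. Over all genes 58.7% and 59.1% did. NOC3 and NOP7 were among those above 0 in both, and none passed the test. NOC3, which pairs with Noc2 and also acts in DNA replication, had signals of 132, 86.3 and 80.8 in the vector arrays, 159.6, 115 and 162 in the CTH1 arrays and 163, 132 and 135 in the CTH2 arrays. Vector replicates 2 and 3 were the lowest of the 9 arrays, and vector replicate 1 lay among the CTH2 arrays. The difference was 0.56 (SE 0.26, limma adjusted p = 0.71) for CTH1 and 0.55 (SE 0.26, limma adjusted p = 0.55) for CTH2, each against vector. NOP7, which forms a complex with Erb1 and Ytm1, had signals of 133, 125 and 130.4 in the vector arrays, 155, 176 and 169 in the CTH1 arrays and 168, 144 and 126 in the CTH2 arrays. The 3 CTH1 arrays were above the 3 vector arrays, and the difference was 0.36 (SE 0.21, limma adjusted p = 0.78). Over the 22 alternative settings this difference ran from 0.12 to 0.41. In CTH2 against CTH1 it stood at -0.20, and at -0.10 without CTH2 replicate 3. RRP17, a 5′ to 3′ exonuclease of rRNA processing, had CTH2 signals of 125, 115 and 111 above all 3 vector signals of 84.6, 97.2 and 68.7, and differed by 0.50 (SE 0.26, limma adjusted p = 0.59). Its difference ran from 0.25 to 0.62 over the 22 alternative settings.

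NOP15 and NOP13, which code for nucleolar RNA-binding proteins, had lower values with CTH1. NOP15 had signals of 738, 807 and 892 in the vector arrays, 672, 455 and 691 in the CTH1 arrays and 892, 809 and 616 in the CTH2 arrays. All 3 CTH1 arrays were below the 3 vector arrays, and the difference of -0.44 (SE 0.23, limma adjusted p = 0.74) was -0.25 without CTH1 replicate 2. NOP13 had signals of 528, 812 and 778 in the vector arrays, 658, 257 and 651 in the CTH1 arrays and 781, 620.04 and 595 in the CTH2 arrays. Here the low value came from CTH1 replicate 2 alone, and the difference of -0.53 became -0.08 without it. NOP2, a methyltransferase of 25S rRNA and the brightest probe set of these factors, ran from 823 to 1174.

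The exosome subunits had the highest median of the role groups in CTH2 against vector. The median of its 7 genes was 0.41, beside 0.07 over all genes, with 6 of 7 above 0, where 59.1% of all genes were, and none past the test. In CTH1 against vector the median was 0.19, again with 6 of 7 above 0. The 2 comparisons share the vector arrays. Of the 7 genes, 7 lay above their mean over the arrays in vector replicate 1, 2 in vector replicate 2 and 0 in vector replicate 3. RRP45, a subunit of the ring, had signals of 391, 374 and 176 in the vector arrays, 282, 586 and 397 in the CTH1 arrays and 527, 496 and 424 in the CTH2 arrays. The CTH2 arrays were above the vector arrays, of which vector replicate 3 was far below the rest, and the difference was 0.70 (SE 0.33, limma adjusted p = 0.55), the largest of any member in this comparison. Without vector replicate 3 it was 0.33, and without vector replicate 1 it was 0.90. RRP43, another ring subunit, had CTH2 signals of 175, 215 and 194 above all 6 other arrays, which lay at 99.9 to 172. Its differences were 0.46 (SE 0.26, limma adjusted p = 0.61) and, against CTH1, 0.45 (SE 0.26, limma adjusted p = 0.77), the second 0.19 without CTH1 replicate 2. RRP43 was named for this separation after its values were seen.

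RRP4 and RRP40 form part of the exosome's RNA-binding cap. RRP4 had signals of 289, 217 and 193 in the vector arrays, 254, 358 and 363 in the CTH1 arrays and 316, 316 and 286 in the CTH2 arrays. Vector replicate 1 overlapped the other groups, and the differences from vector were 0.48 (SE 0.23, limma adjusted p = 0.73) with CTH1 and 0.41 (SE 0.23, limma adjusted p = 0.61) with CTH2. Over the 22 alternative settings they ran from 0.19 to 0.65 and from 0.25 to 0.58. RRP40 had signals of 777, 736 and 463 in the vector arrays, 584, 201 and 871 in the CTH1 arrays and 1073, 976 and 607 in the CTH2 arrays. The CTH1 group held both a very low array, replicate 2, and a high one, replicate 3. Its difference of 0.88 (SE 0.44, limma adjusted p = 0.7) in CTH2 against CTH1 was the largest of any member in any comparison. It shrank to 0.27 without CTH1 replicate 2 and rose to 1.33 without CTH1 replicate 3. RRP46, the brightest exosome probe set, ran from 758 to 1299.

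**Figure D3:**
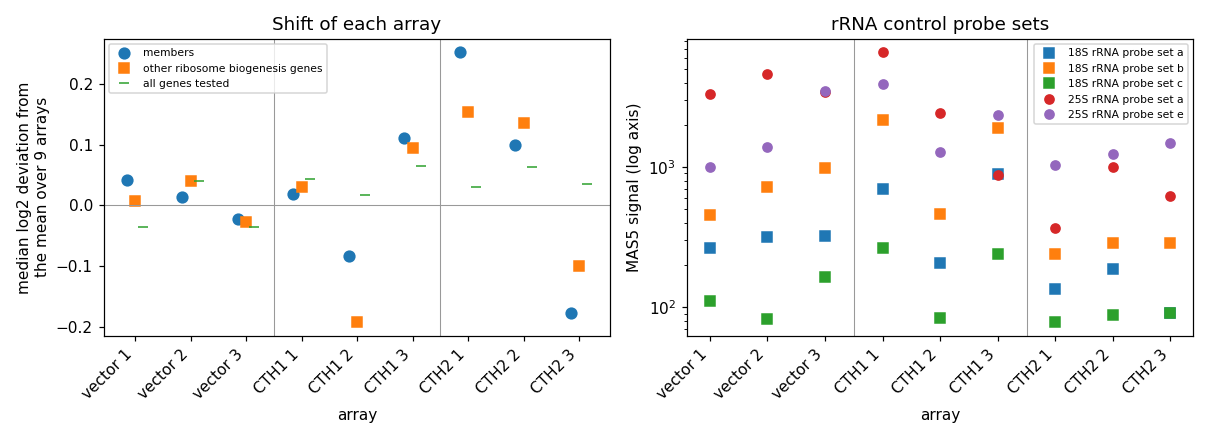
Left, the median log2 deviation of each array from the gene's mean over 9 arrays, for the 57 members, for 128 other ribosome biogenesis genes and for all 4537 genes tested. Right, the signal of the 5 rRNA control probe sets brighter than the filter, on a log axis. The members' median is highest in CTH2 replicate 1 (0.25) and lowest in CTH2 replicate 3 (-0.18), and the CTH2 arrays lie below all vector arrays for 3 of the 5 rRNA sets drawn and overlap them for the other 2.

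The members' common level varied more between replicates than between groups. Their median deviation from the mean over the arrays was 0.04, 0.01 and -0.02 in the vector arrays, 0.02, -0.08 and 0.11 in the CTH1 arrays and 0.25, 0.10 and -0.18 in the CTH2 arrays. The CTH2 group thus held both the highest and the lowest array, and the group means of 0.01 ± 0.03, 0.02 ± 0.10 and 0.06 ± 0.22 (SD, n = 3) differed by less than that spread. Between CTH2 replicates 1 and 3, which had the same labels, 49 of 57 members (86%) were higher in replicate 1, by a median of 0.41, while 47% of all genes were. Between CTH2 replicates 2 and 3, 48 of 57 members (84.2%) were higher in replicate 2, while 50.9% of all genes were. For all 57 members the widest range within a group exceeded the widest gap between group means. Single arrays spread more than means of 3, and the same held for 92.3% of all genes, so this is not particular to the members.

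Genes of the same process that the name rule did not take lay in the same order on CTH2 replicates 1, 2 and 3. Of 140 such genes listed, 128 were tested: other small-subunit factors, other small nucleolar ribonucleoprotein genes, other large-subunit factors, RNA polymerase I, the rest of the exosome with its helpers, and known regulators of the regulon. Their median deviations were 0.15, 0.14 and -0.10 in the CTH2 arrays, and 94 of 128 (73.4%) were higher in CTH2 replicate 1 than in replicate 3. With each array corrected for a trend along the probe-set numbering, described next, the members' values in the CTH2 arrays were 0.26, 0.07 and -0.16.

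**Figure D4:**
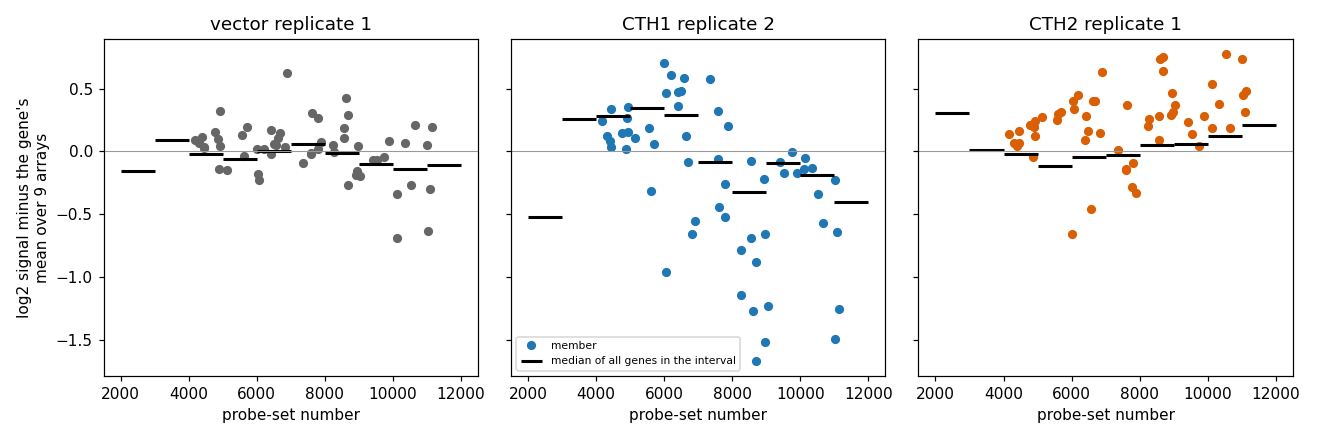
Log2 signal minus the gene's mean over 9 arrays, against the number in the probe-set name, for the tested members (points) and the median of all tested genes in intervals of 1000 (bars), on 3 of the arrays. On CTH1 replicate 2 the bars run from -0.52 to 0.35 and the members follow them, with 21 of 26 members above 0 from 4000 up to 7000 and 28 of 31 below 0 elsewhere.

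Signals followed the numbers in the probe-set names most widely on CTH1 replicate 2, and several of the differences above rest on that array. The medians of all genes in intervals of 1000 numbers ran from -0.52 to 0.35 there, a range of 0.87, against 0.21 to 0.77 on the other 8 arrays. The next widest were CTH1 replicate 3 (0.77), CTH2 replicate 3 (0.74) and vector replicate 2 (0.64). Numbers below 4000, which hold 0 members, gave the low ends on CTH1 replicates 2 (-0.52) and 3 (-0.62). They also gave the high end on CTH2 replicate 3 (0.49). From 4000 up the medians ran from -0.40 to 0.35 on CTH1 replicate 2 and from 0.002 to 0.15 on CTH1 replicate 3. On CTH2 replicate 3 they ran from -0.25 to 0.15 there, and on vector replicate 2 from -0.27 to 0.21. Among the members, the 26 with numbers of 4000 up to 7000 had a median deviation of 0.15 on CTH1 replicate 2, with 21 above 0, and the 31 others had -0.34, with 28 below 0. All genes tested had medians of 0.30 and -0.17 in the same ranges. The 10 members numbered 8000 to 8999, among them IMP4, RRP40 and RRP36, had a median of -0.83, beside -0.32 for all genes there. CTH1 replicate 2 was the lowest of the 9 arrays for 18 members (31.6%, beside 19.4% of all genes) and the highest for 11 (19.3%, beside 23.1%). The 30 member differences with the smallest unadjusted p, 5 each way in each comparison, were recomputed without 1 array. For each, the array was the one whose loss moved it furthest toward 0 or past it. By this choice 22 shrank by over 1.5 times, and for 10 of these the array was CTH1 replicate 2. Because the array was picked in this way, shrinkage was likely in advance, and most other member differences shrank as far. The sources used here do not say what the numbering stands for on the array, and its part in the differences was not tested. With the trend along the numbers removed, a correction added after seeing the data, 0 members passed in each comparison, and the median differences were -0.06, 0.03 and 0.05.

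**Figure D5:**
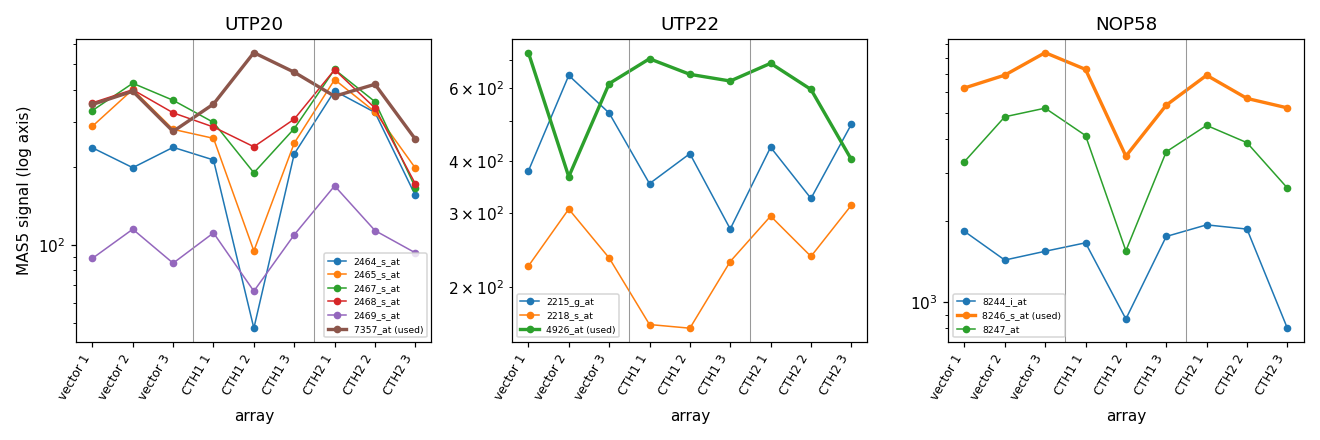
Signal on a log axis of each probe set brighter than the filter for the 3 members that have several, on the 9 arrays; thick lines mark the probe set used. For UTP20 the used set is high on CTH1 replicate 2 while the other 5 are low, and for UTP22 the used set is low on vector replicate 2 while the other 2 are high.

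Probe sets of the same gene disagreed on some arrays. UTP20, a very large processome protein, was read by the set 7357_at, with signals of 350.2, 394 and 276 (vector), 352, 555 and 467 (CTH1) and 377, 419 and 257 (CTH2). CTH1 replicate 2 was the highest of the 9 arrays by this set. A second set of the same gene gave 238, 199.6 and 239 (vector), 214, 47.9 and 225 (CTH1) and 395, 326 and 156 (CTH2), with CTH1 replicate 2 the lowest. All 5 other UTP20 sets brighter than the filter lay below their mean on CTH1 replicate 2, with log2 deviations of -0.37 to -2.07, while the used set had 0.57. These 5 sets are numbered from 2000 to 2999, where all genes had a median of -0.52 on that array, beside -0.08 from 7000 to 7999. The difference of UTP20 was 0.42 (SE 0.26, limma adjusted p = 0.8) for CTH1 against vector with the used set, 0.27 without CTH1 replicate 2 and -0.24 with the mean of all its sets. That mean includes dim sets, some of them at the floor on every array. The 5 other bright sets gave -0.80 to -0.03, and -0.35 to 0.21 without CTH1 replicate 2. In CTH2 against CTH1 the difference of UTP20 stood at -0.39, at -0.18 without CTH2 replicate 3 and at 0.28 with the mean of all sets.

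For UTP22 the disagreement fell on vector replicate 2, where the used set 4926_at had a log2 deviation of -0.67 from its mean and another set had 0.63. That second set had signals of 379, 643 and 523 (vector), 354, 417 and 275 (CTH1) and 432, 326 and 491 (CTH2). For CTH1 against vector the used set gave 0.26, while the other 2 sets brighter than the filter gave -0.55 and -0.48, and the mean of all UTP22 sets -0.13. The 3 NOP58 sets brighter than the filter moved alike, all below their mean on CTH1 replicate 2, with deviations of -0.75 to -1.20. Between CTH1 and vector they differed by -0.23, -0.47 and -0.62, and without CTH1 replicate 2 by 0.10, -0.19 and -0.18.

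The factors act on rRNA, for which the arrays carry 10 control probe sets, 5 for 18S and 5 for 25S, and the sets disagreed. Mean signals of sets for the same 25S rRNA ran from 21.8 to 2597, so the signals are not read as amounts of rRNA. In 3 of the 10, 2 for 18S and 1 for 25S, all CTH2 arrays were below all vector arrays, and in the other 7 the groups overlapped. The 25S set that was apart had signals of 3349, 4649 and 3457 in the vector arrays, 6588, 2451 and 884 in the CTH1 arrays and 367, 1009.6 and 617 in the CTH2 arrays, with CTH1 replicate 3 among the CTH2 arrays. The other bright 25S set had 1005, 1382 and 3501 in the vector arrays, 3946, 1277 and 2369 in the CTH1 arrays and 1032, 1244 and 1486 in the CTH2 arrays, and its groups overlapped.

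The 2 sets for 18S that were apart had 454, 723 and 993 in the vector arrays, 2162, 460.3 and 1911 in the CTH1 arrays and 239, 287 and 286 in the CTH2 arrays, and 266, 315 and 324 in the vector arrays, 698, 207 and 893 in the CTH1 arrays and 135, 189 and 90.5 in the CTH2 arrays. The third 18S set brighter than the filter ran from 78.1 to 263 and overlapped, as did the 5 dim sets. For each of the 3 sets that were apart the exact permutation test of CTH2 against vector gave p = 0.1 (two-sided), which is the lowest value possible with 3 arrays in each group, and the smallest value after adjustment over all 30 such tests of rRNA sets was 0.6. CTH2 replicate 1, where the members were highest, was the lowest array for 4 of the 10 sets, not all of them bright. A bright 18S set was lowest (90.5) on CTH2 replicate 3, where the members were lowest too. The bright 25S set that overlapped was lowest (1005) on vector replicate 1. The relation of these signals to the members' levels was not tested.

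Of the 128 other ribosome biogenesis genes, limma called 0 in each comparison, and 3, 4 and 4 had an unadjusted p under 0.05 (2.34%, 3.13% and 3.13%). Their median differences were 0.01, 0.04 and 0.06. By list, the medians in CTH2 against vector were 0.07 for 37 other small-subunit factors, -0.03 for 6 other small nucleolar ribonucleoprotein genes, 0.05 for 51 other large-subunit factors, -0.02 for 14 genes of RNA polymerase I, 0.21 for 9 other exosome and TRAMP genes and -0.06 for 11 regulators. AIR1, a subunit of the TRAMP complex that hands RNA to the exosome, had signals of 127, 128 and 134 in the vector arrays, 174, 321 and 218 in the CTH1 arrays and 168, 331 and 188 in the CTH2 arrays. All arrays with a plasmid gene were above the vector arrays, and the differences were 0.83 (SE 0.30, limma adjusted p = 0.66) with CTH1 and 0.75 (SE 0.30, limma adjusted p = 0.47) with CTH2. PWP1, a large-subunit factor, had signals of 1063, 1505 and 1397 in the vector arrays, 720.5, 816 and 984 in the CTH1 arrays and 1482, 1134 and 1437 in the CTH2 arrays. The CTH1 arrays were below both other groups, with differences of -0.65 (SE 0.21, limma adjusted p = 0.61) for CTH1 against vector and 0.69 (SE 0.21, limma adjusted p = 0.45) for CTH2 against CTH1. None of the other genes named by rule passed: MPP6 (-0.62) and DBP8 (0.46) in CTH1 against vector, FAF1 (0.59), NAF1 (-0.47) and TCO89 (-0.48) in CTH2 against vector, and DRS1 (0.46), TCO89 (-0.42) and NAF1 (-0.38) in CTH2 against CTH1.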

How the data were processed

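Messenger RNA was measured on 9 Affymetrix arrays, 3 for each plasmid. Per the submitters' processing notes, MAS5 was used; the sources used here give no version. The authors deposited 1 intensity per probe set, on a linear scale. A trimmed mean that drops 2% of probe sets at each end was 500.4 to 500.6 on every array. Of 9335 probe sets, 6504 had 1 gene in the platform annotation, 328 several and 2443 none, and 60 were controls. Detection calls were not used here. Arrays carry no read depth, and their number limits the precision.

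Signals were floored at the 10th percentile (43.2) and log2-transformed, the probe set with the highest mean was kept for each gene, and a gene was tested if its mean exceeded the 25th percentile (98.4). The test was limma 3.58.1 (R 4.3.3) with an intensity trend across all genes, on all 9 arrays without covariates, with Benjamini-Hochberg adjustment over 4537 genes and a call at an adjusted p under 0.05. The procedure was tested on simulated data. Lengths of the members ran from 552 to 7482 nucleotides.

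The naming rule uses no measured value, but it, the role lists and the other gene lists were chosen with earlier results of these data known. Named were the 5 members each way with the smallest unadjusted p in each comparison, the brightest probe set of each role list, and in the other lists the 2 genes each way with the smallest p; other names were chosen after their values were seen. Alternatives covered scaling, floor, filter, probe set choice, trends, weights, the groups in the fit, the replicate block and each array left out.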

Additional observations from a re-analysis of the deposited data

How the results depend on the processing

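No member of the ribosome biogenesis genes, and no gene of the other ribosome biogenesis lists, passed the test in any comparison under the 22 alternatives run, of which 2, with the trend along the probe-set numbers removed, were added after seeing the data. The smallest adjusted p of a member over these settings was 0.32 for CTH1 against vector, 0.19 for CTH2 against vector and 0.059 for CTH2 against CTH1, the last with array weights. The members' median difference ran from -0.08 to 0.07, from -0.05 to 0.16 and from -0.03 to 0.15, so its sign is not settled. The single arrays that moved it most were CTH1 replicate 3 (-0.08 without it, CTH1 against vector) and CTH2 replicate 3 (0.16 and 0.15 without it).

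Counts over all genes depended on the setting. For CTH2 against vector, 13 genes were called, 2 when dim genes were kept, 22 when the fit held only the 2 groups compared, 72 with array weights, 1 with the replicate block, 26 with the gene length trend removed, 50 with the probe-set number trend removed and 49 with CTH1 replicate 2 left out as well. Leaving out 1 array at a time gave 1 to 26: 26 without CTH1 replicate 2, 6 without vector replicate 1, 2 without CTH2 replicate 3 and 1 without vector replicate 2 or 3 or CTH2 replicate 1 or 2. For CTH2 against CTH1, 1 gene was called, 3 with no filter, 26 with array weights and 1 to 3 with 1 array left out (3 without CTH1 replicate 3, 2 without CTH2 replicate 3). For CTH1 against vector, 0 genes were called, and 0 to 1 with 1 array left out (1 without CTH1 replicate 1). Deviations of arrays with the same replicate number had correlations from -0.58 (CTH1 replicate 3 and CTH2 replicate 3) to 0.21 (vector replicate 2 and CTH1 replicate 2). The trends of single arrays along the probe-set numbers enter these correlations, so they do not show how the replicates were paired. Whether arrays with the same number shared a day or batch was not tested. The replicate block changed no call of a member. The cause of these changes was not tested, apart from the fewer arrays or greater number of genes that a setting itself brings.

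Of 54 differences of single genes recomputed, 6 changed sign under an alternative. Most of the 54 were picked for a small unadjusted p or after their values were seen. The count therefore does not stand for the other member differences, which also changed sign in places. RRP40 in CTH1 against vector, outside the 54, moved from -0.46 to 0.15 without CTH1 replicate 2. With the mean of all probe sets, UTP20 and UTP22 turned to -0.24 and -0.13 for CTH1 against vector and to 0.28 and 0.24 for CTH2 against CTH1. Without 1 array, UTP22 in CTH1 against vector ran from -0.026 to 0.47, the lowest without vector replicate 2, and UTP21 in CTH2 against vector from -0.25 to 0.15, with 0.043 under array weights. RRP3 in CTH1 against vector stood at -0.00084 with the probe-set number trend removed. The median level of the members in the vector group moved from a log2 signal of 8.50 to 8.67 with the probe-set number trend removed. With 3 arrays a group the median SE of a member was 0.26, which limits what could be detected.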
